A study of Caenorhabditis elegans with 2 samples.

Results

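The regions described here are autosomal peaks of the eGFP-tagged R02D3.7 protein (gene name rcat-1) in L3 larvae of Caenorhabditis elegans. They lie away from the starts of protein-coding genes. They were taken from the optimal list of the irreproducible discovery rate (IDR), which scores how alike the ranks of a region are in 2 replicates. A peak was kept when its summit lay off chromosome X and outside every window from 1000 bp upstream to 200 bp downstream of a protein-coding transcript start. It also had to lie more than 200 bp from any tRNA, snoRNA or snRNA gene. This gave 327 of the 1584 IDR peaks, or 327 of the 1373 on autosomes. The remaining autosomal peaks were 943 promoter peaks and 103 peaks near small RNA genes.

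The assay was chromatin immunoprecipitation sequencing of whole animals of mixed sex from strain OP218, which carries the unc-119(ed3) III mutation and the transgene wgIs218. The only group held 2 biological replicates. No control sample was analysed here and there is no contrast between conditions, so a site of the tagged protein cannot be told apart from a site that would be listed for any tagged protein. Both replicates share a control alignment, and their lists are therefore not fully independent. In a whole animal a strong site in few cells and a weak site in many cells cannot be told apart either.

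As background, most regulatory sequence in the compact worm genome sits close to gene starts, and the intervals between genes are short. Long introns and long intergenic intervals can nevertheless hold enhancers, unannotated starts and noncoding genes. Some open regions are recovered with many unrelated tagged factors and are known as HOT regions, which in worms are often rich in GA repeats.

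Sequences of 6 of the 20 regions of highest signal are shown because they run from dense GA repeats to a sequence with none of the 5 motifs marked. Each is the 200 bp around the summit in the WBcel235 (ce11) genome of RefSeq, read 5′ to 3′. Capitals mark matches on either strand to GAGAGA and to AGACGCAG, and also to the six-mers GCGCGC and then CGCGCG and to the eight-mer ATCGACAC.
Downstream of ztf-27, chrII:10388136-10388335, plus strand: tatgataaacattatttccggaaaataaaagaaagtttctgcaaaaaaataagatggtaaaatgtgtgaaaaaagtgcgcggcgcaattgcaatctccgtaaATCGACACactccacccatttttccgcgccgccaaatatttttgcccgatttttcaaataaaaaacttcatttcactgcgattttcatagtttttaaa
linc-128 exon near cmd-1, chrV:1151417-1151616, plus strand: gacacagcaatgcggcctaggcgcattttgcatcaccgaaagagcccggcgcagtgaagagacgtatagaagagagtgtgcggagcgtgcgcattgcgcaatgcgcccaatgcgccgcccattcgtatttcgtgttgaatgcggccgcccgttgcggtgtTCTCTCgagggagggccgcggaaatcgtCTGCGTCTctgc
Y111B2A.12 intron, chrIII:12612554-12612753, plus strand: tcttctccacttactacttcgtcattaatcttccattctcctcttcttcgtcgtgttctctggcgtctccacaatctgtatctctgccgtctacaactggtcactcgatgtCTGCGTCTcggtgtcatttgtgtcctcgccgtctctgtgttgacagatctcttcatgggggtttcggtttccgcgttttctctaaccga
Upstream of T04C4.3, chrIV:2219527-2219726, plus strand: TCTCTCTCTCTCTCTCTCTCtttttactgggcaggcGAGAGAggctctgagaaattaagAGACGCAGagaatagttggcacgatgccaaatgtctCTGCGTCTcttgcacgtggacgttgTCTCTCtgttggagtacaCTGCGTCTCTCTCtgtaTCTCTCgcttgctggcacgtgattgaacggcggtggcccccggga
Upstream of sup-26, chrIII:4282101-4282300, plus strand: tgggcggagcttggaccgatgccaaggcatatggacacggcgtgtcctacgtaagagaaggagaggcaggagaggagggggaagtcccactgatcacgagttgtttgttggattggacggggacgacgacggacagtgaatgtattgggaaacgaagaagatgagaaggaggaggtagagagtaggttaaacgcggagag
Near K08F11.1, chrIV:4727946-4728145, plus strand: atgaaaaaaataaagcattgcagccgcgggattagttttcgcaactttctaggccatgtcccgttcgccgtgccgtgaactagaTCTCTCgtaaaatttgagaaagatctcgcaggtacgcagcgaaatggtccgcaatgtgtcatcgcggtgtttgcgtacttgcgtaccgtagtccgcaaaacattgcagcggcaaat
The T04C4.3 sequence held 16 matches, of which 13 were to GAGAGA and 3 to AGACGCAG, and it opens with an unbroken CT run. The ztf-27 sequence, the one of highest signal, held 1 match to ATCGACAC and none to GAGAGA. ATCGACAC was rare, in 9 of the 327 regions (2.75%), and was more frequent in promoter peaks (5.09%). The sup-26 sequence held 0 matches to these 5 motifs, though it holds GGGCGG, another motif searched for.

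Signals off promoters had a lower median and a shorter upper tail than those at promoters, with ranges that overlapped widely. The signal was deposited by the authors, and its scale was not given in the sources used here. Levels are compared only within a list, and the 2 replicate lists may differ in scale. It had a median of 69.1 over the 327 regions (quartiles 57.5 and 93.1, range 50.7 to 1284), against 93.4 over the promoter peaks (quartiles 64.3 and 168.9, highest 4055). A signal above 100 was found in 71 of the 327 and 439 of the 943 promoter peaks, and one above 200 in 10 and 196. The regions made up 3 of the 100 strongest IDR peaks, 14.02% of the higher-signal 792 peaks and 27.3% of the lower-signal 792. The IDR list is the top of the pooled list, and membership of it follows signal. Of all pooled autosomal regions 5.41% were IDR peaks, against 1.99% of the 16407 that met the position rule and 11.4% of those with a summit in a promoter window. The weakest of the 327 had a signal of 50.698 and the strongest pooled region with the same position outside the IDR list had 50.652, so the list border runs through a continuous range.

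**Figure D1:**
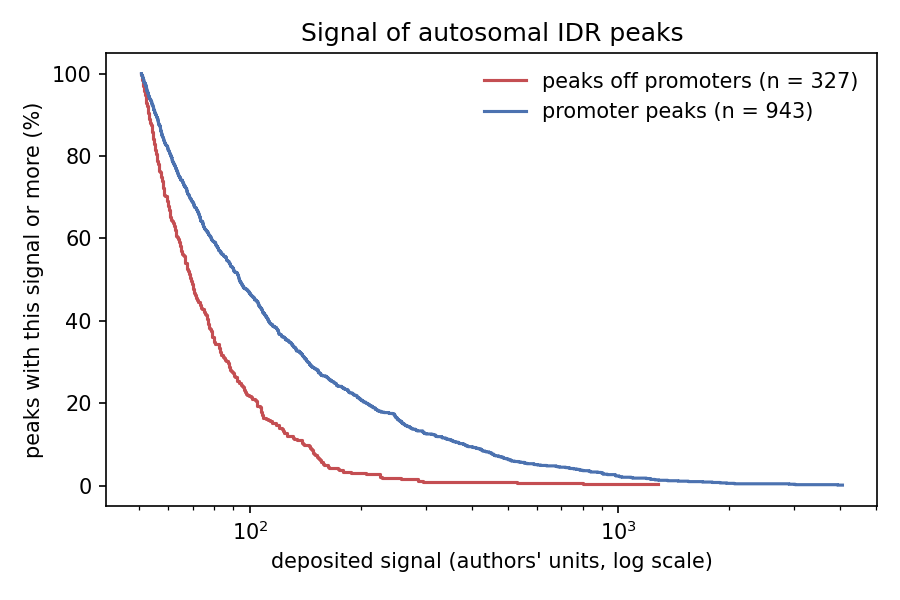
Share of peaks (y axis, percent) at or above a given deposited signal (x axis, log scale) for the 327 autosomal peaks off promoters and the 943 autosomal promoter peaks. The line for peaks off promoters lies to the left, with a median of 69.1 against 93.4.

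The 3 strongest regions stood well above the rest and repeated closely in rank. The first (chrII:10388006-10388464, signal 1284) lay in the interval between ztf-27, a zinc finger gene by its name, and T09F3.2. It was 103 bp beyond the ztf-27 gene and 2903 bp downstream of its start, with a signal of 796.7 in replicate 1 and 477.3 in replicate 2, where it ranked 15 in each list. The second (chrI:5261595-5262012, signal 803.4) lay in intron 29 of let-363, which encodes the TOR kinase that couples growth to nutrients. Its summit was 1917 bp upstream of the nearest coding start, that of vep-1. The signal of this second region was 495.2 in replicate 1 (rank 40) and 304.0 in replicate 2 (rank 34). The third-ranked region (chrIII:3456274-3456573, signal 528.9) fell in an annotated 5′ UTR of C34C12.2, with signals of 324.2 and 205.3 in replicates 1 and 2. It lay 2084 bp from the nearest coding start, which is that of C34C12.1. It ranked 65 and 68 in the replicate lists.

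The next regions had signals between 206 and 296 and were mostly intergenic. They lay near F40E3.3 (signal 295.4), in an exon of the noncoding gene linc-128 whose nearest coding gene is the calmodulin gene cmd-1 (286.0), and in intron 4 of Y111B2A.12 (256.5). Others lay near wrb-1, whose human counterpart is a receptor for insertion of tail-anchored proteins (228.1), and near nlp-40, which encodes a neuropeptide released from the intestine (225.6). T04C4.3 (225.4) and sup-26, an RNA-binding protein gene (206.5), completed the first 10. The nlp-40 and wrb-1 regions both lay in short intervals between genes that converge, of 646 and 675 bp, and therefore beyond the 3′ ends of both neighbours.

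Ranks 11 to 20 among the 327 had signals from 155.8 to 187.5. They lay near K08F11.1, in intron 1 of zfp-1, which encodes a chromatin protein related to human AF10, inside T28F4.1, and between mtm-3, a myotubularin phosphatase gene, and xbx-5. The others lay near W08E3.4, wrb-1 again, F54F12.1 and F58D12.1 and in introns of Y75B8A.25 and pqn-41, a gene for a glutamine-rich protein. The second wrb-1 region shares its regions in both replicates with the first, so these are not separate observations. The 200 bp around its summit had 32 further matches in the genome of at least 90% identity over 100 bp. By the same measure the F40E3.3 region had 5 and the K08F11.1 region 7.

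The label of intergenic and intronic peaks covered most of the regions but not all of them. Summits were intergenic in 182 (55.7%, Wilson 95% interval 50.2 to 60.9), against 27.4% of the 59.95 Mb of autosomal bases that meet the same position rule, called eligible bases below. Another 86 (26.3%, interval 21.8 to 31.3) lay in introns of coding genes, against 37.0% of eligible bases. Coding exons held 8 (2.45%, interval 1.24 to 4.75) against 26.7%. Exons of noncoding genes held 30 (9.17% against 3.87%), 3′ UTRs 11 (3.36% against 3.04%) and 5′ UTRs 9 (2.75% against 0.390%), and 1 summit lay in an intron of another gene. The 16080 pooled regions that meet the position rule and are not IDR peaks were spread more like the genome, with 26.0% intergenic, 41.7% in introns and 22.7% in coding exons. All intervals cover counting error only.

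**Figure D2:**
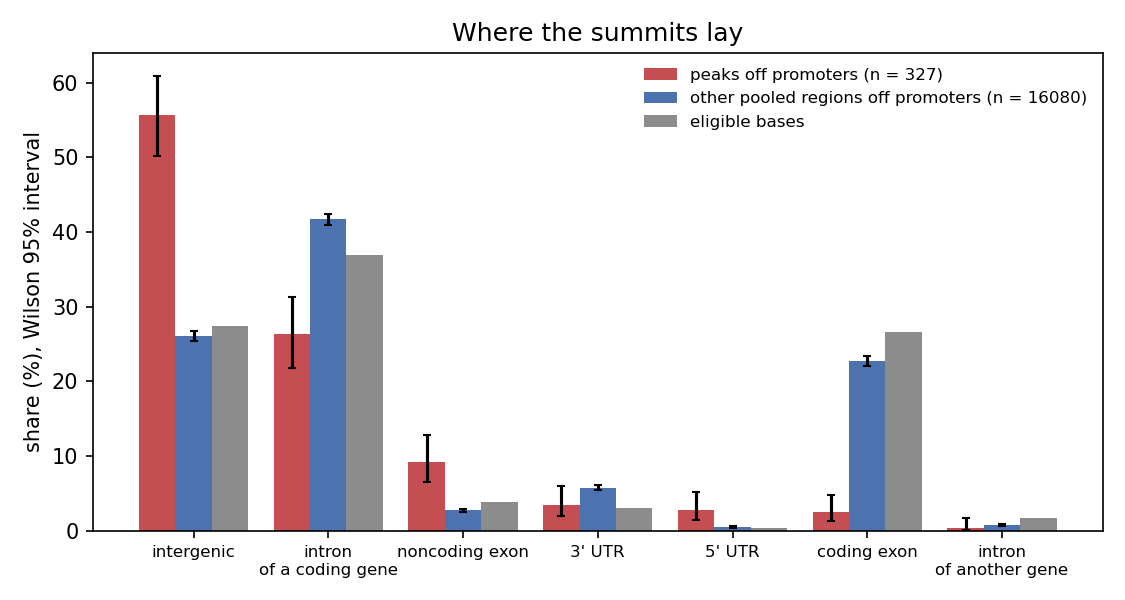
Share of summits (y axis, percent, with Wilson 95% intervals) by annotated location for the 327 peaks off promoters and the 16080 other pooled regions with the same position, beside the share of eligible bases. Intergenic summits make up 55.7% of the peaks and coding exons 2.45%, against 26.0% and 22.7% of the other pooled regions.

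The shift in location was graded along the pooled list and did not begin at the IDR border. Among the 50 strongest regions with this position 58.0% were intergenic and 0 lay in coding exons, which allows a share of up to 7.13% (Wilson). Among ranks 51 to 327 the shares were 55.2% and 2.89%, and among ranks 328 to 654, the first outside the IDR list, 49.2% and 8.26%. In the weakest class, ranks 5233 to 16407, they were 24.1% and 24.4%, close to the eligible bases.

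**Figure D3:**
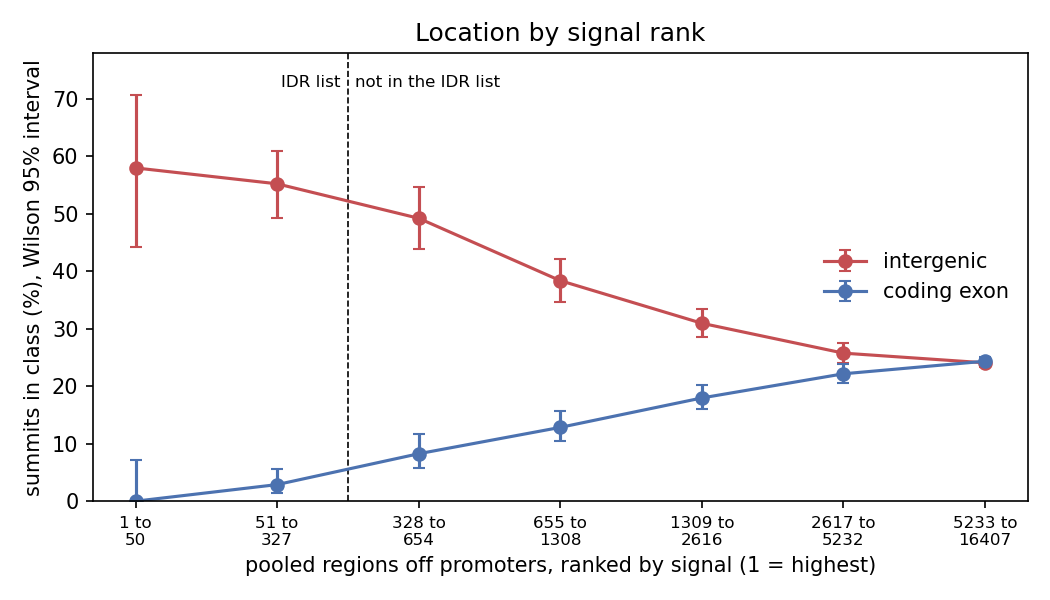
Share of intergenic and of coding-exon summits (y axis, percent, with Wilson 95% intervals) among pooled autosomal regions off promoters in classes of falling signal (x axis, ranks). The intergenic share falls from 58.0% to 24.1% and the coding-exon share rises from 0% to 24.4%, and the dashed line marks the end of the IDR list.

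Distances to coding starts resembled those of eligible bases in their median but not in their spread. The median was 1848 bp (quartiles 1277 and 2983, range 206 to 13392), against 1853 bp over eligible bases (quartiles 1092 and 3279). Fewer summits lay within 1000 bp of a start, which is possible only downstream of it, with 11.6% against 21.1% of eligible bases, and more lay between 1000 and 1500 bp, with 24.5% against 18.8%. A total of 177 (54.1%) lay upstream of the nearest start. The borders of the position rule divided close neighbours. The dhs-8 summit, 1001 bp upstream with a signal of 74.9, was kept, and the pqn-87 summit, at 985 bp with 96.0, was not. On the other side the pigk-1 summit, 206 bp downstream with 56.2, was kept, and the spd-5 summit, at 189 bp with 80.6, was not.

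**Figure D4:**
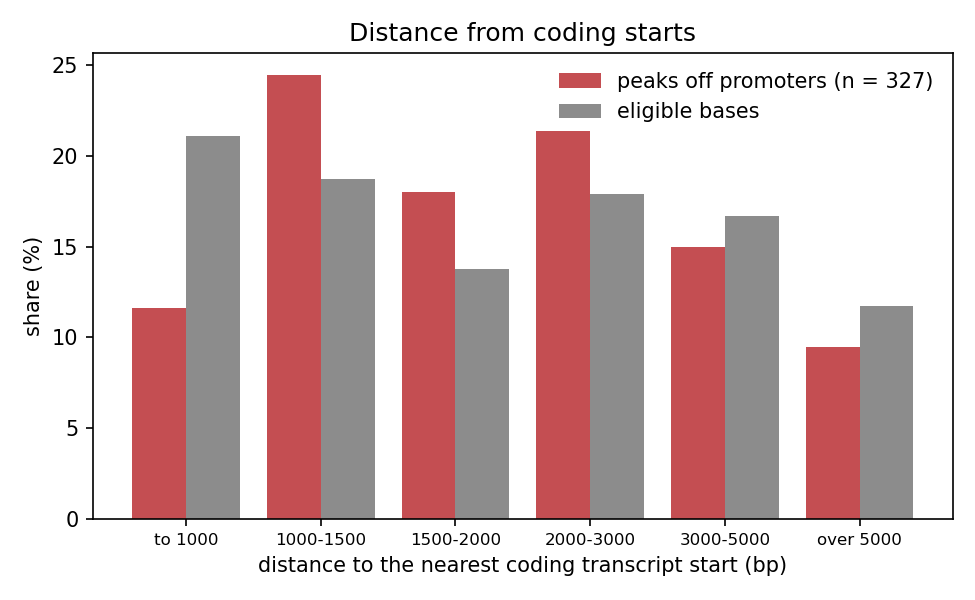
Share (y axis, percent) of the 327 peaks off promoters and of eligible bases by distance to the nearest coding transcript start (x axis, bp). The peaks exceed the eligible bases between 1000 and 3000 bp and lie below them under 1000 bp, with 11.6% against 21.1%.

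Between genes, the summits lay in intervals with shorter medians than those around eligible intergenic bases. Of the 182 intergenic summits, 109 (59.9%) lay between genes of one direction, 54 (29.7%) between genes that diverge and 19 (10.4%) between genes that converge, against 53.2%, 30.3% and 16.5% of eligible intergenic bases. The intervals had a median length of 5271 bp (1283 to 20592), 8029 bp (2653 to 35563) and 646 bp (209 to 17470) in these classes. The interval around an eligible intergenic base had a median of 6911, 9899 and 3891 bp. The promoter windows exclude short tandem and divergent intervals from both sets, but not convergent ones.

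Introns that held a summit were long. Of the 85 summits in introns of protein-coding transcripts, 32 (37.6%, interval 28.1 to 48.3) lay in the first intron, against 22.2% of eligible intron bases. The introns had a median of 3573 bp (247 to 19927), against 932 bp for the intron around an eligible intron base and 70 bp over all 90275 annotated autosomal coding introns. In 59 (69.4%, interval 59.0 to 78.2) the intron measured 2000 bp or more, against 27.04% of eligible intron bases. The let-363 region was an exception, in an intron of 571 bp. After let-363, Y111B2A.12, zfp-1, Y75B8A.25 and pqn-41 the strongest were in spop-1, a gene of a BTB-domain family (intron 1 of 4847 bp, signal 146.8), ppfr-1 (intron 5 of 10404 bp, 144.7) and the kinase gene mnk-1 (intron 2 of 5833 bp, 138.9). They were followed by 2 more regions of pqn-41, with signals of 130.6 and 125.7.

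Several genes held clusters of summits. The regulatory subunit gene of protein phosphatase 4, ppfr-1, held 5 within 9380340 to 9383874 on chromosome I, with signals from 52.4 to 152.9. Those at 9381376 and 9381575 lay 199 bp apart and may not be separate observations. In the strongest region of ppfr-1 the 200 bp around the summit had 356 further matches in the genome of at least 90% identity over 100 bp. The placing of reads with several matches was not given in the sources used here. The first intron of pqn-41 (7776 bp) held 4, with pooled signals of 157.5, 130.6, 125.7 and 90.7 and replicate signals of 47.31 to 86.01 and 45.8 to 72.6 in replicates 1 and 2. It is the first intron of the transcript F53A3.4d.1. The summits of signal 157.5 and 130.6 lay 2285 and 1043 bp upstream of another pqn-41 start, the latter just outside its promoter window. The zfp-1 gene held 3 (64.6 to 178.3), as did let-526, which encodes a subunit of the SWI/SNF chromatin remodelling complex (73.3 to 80.5), and the interval at K08F11.1 (111.5 to 187.5). Of the K08F11.1 regions, those of signal 139.7 and 111.5 share 1 region in both replicate lists and are not separate observations. Another 25 genes had 2. In all, 289 coding genes were the host or nearest gene, and 69 regions formed 29 groups with summits within 5000 bp of each other.

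Some close summits belonged to regions that adjoin. The next IDR summit lay within 1000 bp for 32 of the 327 (9.79%), against 4.77% of promoter peaks. Regions of 16 overlapped another of the 327, and 14 shared their region in both replicate lists with another. The sup-26 region of rank 10 and a weaker one (signal 77.3) are such a pair with the same left end.

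Annotated noncoding genes lay close to some summits. A start of a noncoding gene other than tRNA, snoRNA and snRNA lay within 200 bp of 56 (17.1%, interval 13.4 to 21.6), against 7.49% of eligible bases. The class called ncRNA in the annotation gave 47 (14.4% against 1.99%). A precursor microRNA start lay near 3 (0.917% against 0.0842%), a piRNA start near 5 (1.53% against 4.36%) and a pseudogene start near 4 (1.22% against 0.946%). The strongest was the K08F11.1 region of signal 187.5 beside a pseudogene, followed by W08E3.5 (163.5), F16A11.7 inside ppfr-1 (152.9), F22E12.10 beside egl-9, the prolyl hydroxylase of the hypoxia pathway (149.1), and F47F6.13 inside lin-42 (145.0). The others of the first 10 had signals from 103.4 to 139.7. They lay beside an unnamed ncRNA gene near K08F11.1, a pseudogene near Y17D7C.2, rpr-1, T23F11.10 and K02F2.11. The rpr-1 gene, which encodes the RNA of RNase P, starts 4 bp from a summit (signal 123.4, with 67.5 and 58.8 in replicates 1 and 2) inside an intron of ints-8, an Integrator complex gene.

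Counts of autosomal genes that were the host or nearest gene were small in every gene family, beside 289 of 17138 protein-coding genes (1.69%). No interval was attached to these shares, and they are not ranked. Cuticle collagens gave 5 of 143 (3.50%), led by col-3 (signal 79.99), col-17 (62.9) and col-133 (59.7). Nuclear hormone receptors gave 6 of 246 (2.44%), led by nhr-88 (149.8), nhr-19 (83.5) and nhr-46 (76.7). Molting and hedgehog-related genes gave 2 of 105 (ptr-21 and nas-30), C-type lectins 3 of 234 (clec-182, clec-91 and clec-1), ribosomal proteins 1 of 79 (rpl-3) and F-box, MATH or BATH genes 1 of 372 (bath-44). Chemoreceptors gave 2 of 1320 (0.152%, srbc-58 and srt-47). Histones (54 genes), translation factors (36) and homeobox genes (62) gave 0. At a share of 1.69% lists of this length hold few such genes, so a 0 sets none of them apart. Of 6 heterochronic genes, which time larval development, lin-42, related to the Period clock genes, had 2 regions with signals of 145.0 and 65.4. Another region, of signal 119.9, lay 1426 bp upstream of its nearest coding start, that of lin-41, also a heterochronic gene. It was credited to M04C9.2, whose nearest edge was closer, so counts by host or nearest gene can miss such genes in any list. No region lay within 50 kb of rcat-1 or unc-119. A long gene or wide interval offers more bases for a summit, and the counts are not adjusted for that.

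The regions were spread unevenly over chromosomes, in part as all autosomal IDR peaks were. Chromosome III held 84 (25.7%, interval 21.3 to 30.7) against 17.3% of eligible bases and 21.9% of autosomal IDR peaks, and V held 54 (16.5%, interval 12.9 to 20.9) against 24.3% and 17.3%. On IV there were 76 (23.2% against 21.6% and 18.8%), on I 57 (17.4% against 18.7% and 22.1%) and on II 56 (17.1% against 18.1% and 19.96%). The regions made up from 18.8% of the autosomal IDR peaks of chromosome I to 29.5% of those of IV. When each chromosome was cut into 3 equal parts, 133 (40.7%) lay in the central one, against 31.8% of eligible bases and 42.2% of promoter peaks.

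Replicates ranked these regions, like the 80 peaks of chromosome X off promoters, less alike than promoter peaks. The list was chosen on the pooled signal, so overlap with each replicate is partly built in. With the 1584 highest regions of each replicate list, replicate 1 held 226 (69.1%) and replicate 2 held 260 (79.5%), with 166 (50.8%, interval 45.4 to 56.1) in both and 7 in neither. Among promoter peaks 90.6%, 78.6% and 70.5% were in replicate 1, in replicate 2 and in both, and among the chromosome X peaks 76.3%, 85.0% and 62.5%. Of the 50 strongest regions 49 and 50 were among the highest of replicates 1 and 2. Across the 319 regions listed in both replicates Spearman's rho of the replicate signals was 0.19 and Pearson's r 0.87, against 0.76 and 0.98 over 940 promoter peaks and 0.46 and 0.92 over the 80 on chromosome X. The regions share libraries and a control, and the list ends at a pooled signal of 50.7, whose part in the rank correlation was not tested, so these values are descriptions. Replicate summits lay a median of 35 bp apart, against 17.5 bp at promoter peaks and 31 bp at the chromosome X peaks.

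**Figure D5:**
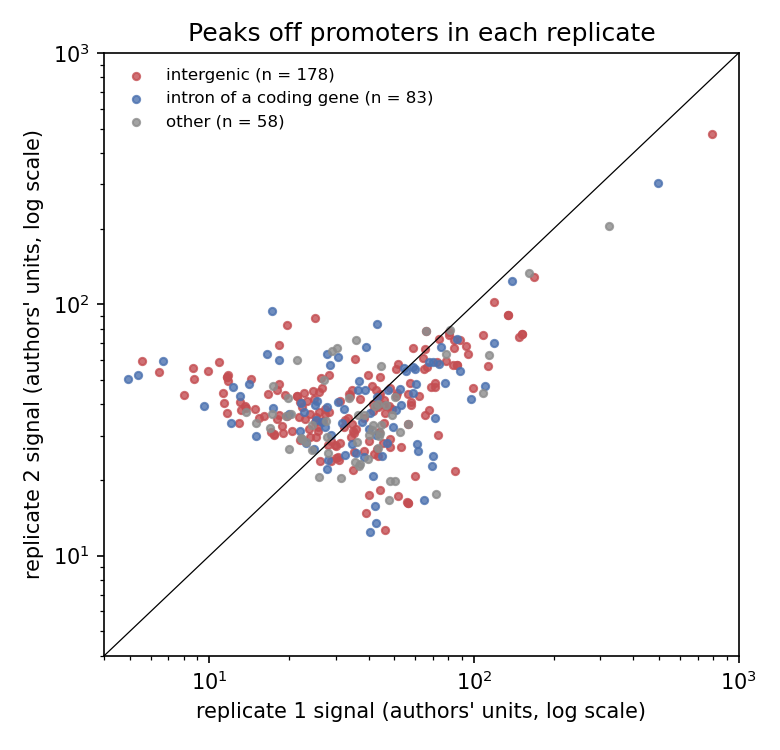
Deposited signal in replicate 1 (x axis) and replicate 2 (y axis), both on log scales, for the 319 peaks off promoters listed in both replicates, by location, with the line of equal values drawn as a guide, since the lists may differ in scale. The strongest peaks lie along a rising band, and below a signal of about 100 the points spread to both sides of the line.

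A width other than the most frequent one was more common among strong regions than among weak ones. The deposited width was exactly 384 bp in 290 (88.7%), against 63.8% of promoter peaks. It was so in 22 of the 50 strongest regions and in 268 of the other 277. The 37 regions of another width had a median signal of 154.6, against 66.6 for those of 384 bp.

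GA repeats were the most frequent searched sequence at the summits. GAGAGA, on either strand, lay within the 200 bp around 204 of the 327 summits (62.4%, interval 57.0 to 67.5), against 10.1% of flanking windows centred 500 bp to each side, 30.9% of promoter peaks and 9.55% of 299727 eligible windows of 200 bp. The share was 63.7% in intergenic regions, 60.5% in introns, and 24 of 30 regions in noncoding exons held it. A pure GA or CT run of 10 bp or more was present in 55, and the longest, of 67 bp, lay in aakg-1, a gene of an AMP kinase subunit.

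The other six-mers were chosen in the promoter peaks, and their shares here are values that choice did not use. Their shares in promoter peaks were part of the choice, so a lower share here than there is partly built in. GACGCA lay in 109 (33.3%, interval 28.4 to 38.6), against 3.67% of flanks, 24.9% of promoter peaks and 3.81% of eligible windows. The longer AGACGCAG, which holds GACGCA and was added after the data were seen, lay in 93 (28.4%), against 1.07% of flanks, 13.6% of promoter peaks and 0.991% of eligible windows. GACGCA was present in 44.1% of regions with GAGAGA and 15.4% of those without, though the T04C4.3 sequence shows that such matches can adjoin or share bases. GCGCGC (12.8%), CGCGCG (9.48%), ACGCGC (9.48%) and CGCGCA (13.1%), which overlap one another, were each below their shares in promoter peaks (16.9%, 12.5%, 23.2% and 19.9%) and above those in eligible windows (1.16%, 0.983%, 2.34% and 2.55%).

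Like the location, the shares of GAGAGA and AGACGCAG were graded with signal. GAGAGA lay in 64.0% of the 50 strongest pooled regions off promoters, 62.1% of ranks 51 to 327, 45.3% of ranks 328 to 654 and 11.1% of ranks 5233 to 16407. AGACGCAG lay in 38.0%, 26.7%, 14.4% and 1.69% of the same classes. The median signal was 80.04 for regions with AGACGCAG and 67.3 for those without.

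Runs of T and several AT-rich sequences were less frequent than around the summits. TTTTTT lay in 37.6%, against 63.3% of flanks and 62.5% of promoter peaks, and TAATTA, a core shared by many homeodomain sites, in 2.45% against 10.9% and 6.15%. TATAAA lay in 10.4% against 24.2% of flanks and TTTCAG, the worm splice acceptor consensus, in 13.8% against 32.0%. The median G+C was 45.5%, against 40.5% at promoter peaks. CACGTG, the E-box core, lay in 9.17% against 3.21% of flanks and GGGCGG in 11.3% against 4.28%. TTAGGC, the worm telomere unit, lay in 1.53% against 6.57% of flanks.

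GATAAG, the core bound by GATA factors such as ELT-2 of the worm intestine, followed the replicate. It lay in 39 of the 327 (11.9%, interval 8.85 to 15.9), against 6.88% of flanks and 4.77% of promoter peaks. Of the 94 regions among the highest of replicate 2 alone 24 held it (25.5%, interval 17.8 to 35.2), against 2 of 60 for replicate 1 alone (3.33%, interval 0.919 to 11.4) and 12 of 166 for both (7.23%, interval 4.18 to 12.2). The median log2 ratio of replicate 2 to replicate 1 signal was 0.96 over 34 regions with it and -0.13 over 285 without, where only the difference between the groups is free of the scale of the lists. Of the 8 regions absent from the replicate 1 list 5 held it. The strongest region with it that only replicate 2 ranked high lay in an intron of D2023.3, with a signal of 17.3 in replicate 1 (rank 2837) and 94.2 in replicate 2 (rank 204), and another lay in jun-1, an AP-1 factor gene, with 16.5 and 63.4. GATAAG lay in 2 of the 50 strongest regions and in 37 of the other 277. The split by replicate was not particular to these regions. Promoter peaks held GATAAG in 10 of 76 for replicate 2 alone and 7 of 189 for replicate 1 alone. For chromosome X peaks off promoters the counts were 5 of 18 and 0 of 11. This split was noticed in the data and its cause was not tested.

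Sequence copies joined some regions. In 14 (4.28%, interval 2.57 to 7.06) the 200 bp around the summit had a further match in the genome of at least 90% identity over 100 bp, against 2.44% of promoter peaks. The regions near F40E3.3 (signal 295.4) and K08F11.1 (187.5) and one in an intron of col-72 (55.9) shared an element, with identities of 98.9% over 94 bp, 96.3% over 109 bp and 96.0% over 124 bp between pairs. A second K08F11.1 region (139.7) and one in an intron of F28F8.7 (96.9) were 97.9% identical over 97 bp. Soft-masked bases of the genome made up a median of 16.5% of the 200 bp, against 34.5% at promoter peaks.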

How the data were processed

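Chromatin immunoprecipitation sequencing was done on 2 biological replicates of 1 group, grouped per the labels. Peak lists on ce11 were used for the IDR set, the pooled replicates and each replicate. The signal per region, its −log10 q-value and its summit offset were deposited by the authors. The −log10 q-value was only checked for range and the summit offset, in bp from the region start, placed each summit. Nothing on the caller, aligner, IDR threshold or read depth was given in the sources used here. The depth per sample is therefore unknown and no counting error is attached to a region. Precision is described through the replicates.

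Regions were placed on Ensembl release 115 (WBcel235), with promoter windows of 1000 bp upstream to 200 bp downstream of starts of protein-coding transcripts. Location classes were assigned in the order coding exon, 5′ UTR, 3′ UTR, noncoding exon, intron of a coding gene, intron of another gene, intergenic. Copies were found with BLAST+ 2.17.0, and the rest with Python 3.11.15, numpy 2.4.6 and scipy 1.17.1, checked on simulated regions. A region was found in a replicate when it overlapped by 1 bp a region of that list. No tests were run: counts and shares have Wilson 95% intervals for counting error alone, and peaks are not replicates. Motifs were searched on both strands in 200 bp.

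Named regions were the 20 of highest signal, the 10 strongest in introns, those at the window borders, genes with 3 or more, up to 3 per gene list and the 10 strongest near noncoding starts. The regions, lists and measures were chosen with earlier results of these data known. The split of GATAAG by replicate, its examples, the classes of falling signal, the longer motifs, the interval lengths over eligible bases and the shared copies were chosen after their values were seen. Alternatives changed the promoter window, the distance from small RNA genes, the signal threshold, the sequence window, the overlap and the replicates required.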

Additional observations from a re-analysis of the deposited data

How the results depend on the processing

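The number of regions rose from 327 to 432 with promoter windows of 500 and 100 bp. It fell to 206 with windows of 2000 and 500 bp and to 111 in the higher-signal 50 percent of the IDR list. The median distance to a coding start was 2608 bp with those wider windows and 1436.5 bp with windows of 500 and 100 bp. In the higher-signal 50 percent the median signal was 108.2 and 91.9% were among the highest of both replicates. When only 1 replicate was required, the number was 226 to 260, the median signal 75.06 to 79.95, the intergenic share 54.0% to 58.1%, the GAGAGA share 64.2% to 64.6% and the GACGCA share 33.8% to 39.4%. In 100 bp around the summit GAGAGA lay in 46.8% and GACGCA in 22.0%. Within 2000 bp the close regions formed 19 groups. The other settings, 56 of 68, stayed within the limits set, which were wide enough to include the rise to 432 regions. The windows from every transcript of a coding gene, the removal of regions with copies and the motif shares by replicate were chosen after seeing the data. No paired analysis was possible because there is only 1 group. Without read counts or a control sample, the error of a single region cannot be given.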

Other observations

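GATAAG was also counted in each replicate's own list, without the IDR list. Among autosomal regions off promoters within the 1584 highest of replicate 2, it lay in 75 of the 223 that overlapped none of the 1584 highest of replicate 1 (33.6%, Wilson 95% interval 27.8 to 40.1) and in 14 of the 163 that did (8.59%). In the replicate 1 list it lay in 6 of 132 regions seen there alone (4.55%) and in 10 of 168 shared ones (5.95%). In promoter windows the corresponding values were 25.4% of 185 regions of replicate 2 alone and 3.14% of 318 of replicate 1 alone. AGACGCAG lay in fewer of the regions found in 1 replicate alone than of the shared ones off promoters, with 29 of 223 against 53 of 163 in replicate 2 and 27 of 132 against 56 of 168 in replicate 1. In promoter windows it lay in 37 of 185 regions of replicate 2 alone and 82 of 662 shared ones, and in 44 of 318 and 85 of 672 for replicate 1. The counts were made after the split was seen, 1 library stands behind each replicate, and the cause was not tested.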
